A study of Mus musculus with 5 samples.

Results

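The change between 5 wk and 6 wk was followed in 2 groups of ovarian cells of C57BL6/J mice that had received no treatment. One group was chosen by Inha, the alpha subunit of inhibin that granulosa cells make, with at least 5 Inha UMIs (unique molecular identifiers, each standing for 1 captured transcript) and no Dcn UMI. The other was chosen by Dcn, the matrix proteoglycan decorin of mesenchymal cells, with at least 3 Dcn UMIs and at most 4 of Inha. Cells needed at least 1000 detected genes and under 15% of UMIs from mitochondrial genes. The rule took 5737 Inha-selected cells, 2540 at 5 wk and 3197 at 6 wk, and 5567 Dcn-selected cells, 2353 and 3214. These are 11304 of the 48163 cells in 5 libraries that span 2 to 6 wk, 1 library per age. Ovaries were trypsinized, dead cells were sorted out by a dye, and 3′ transcripts were counted on the 10x platform. How many animals gave each library was not stated in the labels. With 1 library at each age, age cannot be told apart from the animals, the dissociation or the library, and no difference below has a replicate check.

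Granulosa cells surround the oocyte and divide as a follicle grows. They convert androgen to estrogen and secrete inhibin, activin and anti-Mullerian hormone. Mesenchymal cells form the stroma, the theca layers that make androgen for the granulosa cells, and the smooth muscle around follicles and vessels. The study used the weekly series to follow the first wave of follicles through puberty.

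The 5 and 6 wk libraries held 107071492 and 144609431 UMIs in 7779 and 10583 barcodes, of which 6558 and 8824 passed the cell filter, and 29 barcodes occurred in both. Median depth was close at the 2 ages, 17322 and 18381 UMIs for Inha-selected cells and 9801 and 10187 for Dcn-selected cells. Inha-selected cells made up 38.7% (95% Clopper-Pearson interval 37.5 to 39.9%) and 36.2% (35.2 to 37.2%) of passing cells, and Dcn-selected cells 35.9% (34.7 to 37.1%) and 36.4% (35.4 to 37.4%). All intervals here cover counting error only. The 5 wk library stood apart in its cells with 2 or more UMIs of Cyp17a1, an enzyme that makes androgen. There were 558 of them (8.51% of passing cells), against 98, 60, 128 and 59 at 2, 3, 4 and 6 wk.

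The marker check held for the Dcn-selected cells, apart from the granulosa marker Foxl2, and only in part for the Inha-selected cells. Levels are given in CPM, the usual scaling of UMI counts to the lineage's total in that library. All 10 mesenchymal markers were measured in Dcn-selected cells, where they summed to 7196 CPM at 5 wk and 7313 CPM at 6 wk; Inha-selected cells held 140 and 120 CPM of them. The 11 granulosa markers summed to 2202 and 3080 CPM in Inha-selected cells and to 213 and 299 in Dcn-selected cells. Of the 11, 3 reached 20 CPM in Dcn-selected cells. Foxl2 was among them and made up a large part of the sum there, with levels given under the other observations. For the 8 theca markers, however, the sum in Inha-selected cells was 1672 CPM at 5 wk and fell to 161 a week later. In Dcn-selected cells it was 155 and then 45.0 CPM. There 33 cells at 5 wk and 12 at 6 wk had 2 or more Cyp17a1 UMIs. Without them the steroid gene Star in Dcn-selected cells still went from 25.3 to 9.40 CPM (0.372). In Inha-selected cells most of the 5 wk sum lay in 291 of 2540 cells (11.5%, 10.2 to 12.8%) with 2 or more Cyp17a1 UMIs. At 6 wk 8 of 3197 Inha-selected cells had as many (0.250%, 0.108 to 0.492%). At 5 wk those 291 cells held a median of 64 Cyp17a1 UMIs. They carried Cyp11a1, the enzyme that starts steroid synthesis, at 5561 CPM against 37.8 in the remaining Inha-selected cells, and Insl3, a theca hormone, at 58.8 against 0.0957. All granulosa markers but Kitl were lower in them, some far more than others. Kitl, the KIT ligand gene, was higher, at 240 CPM against 124. Amhr2 stood at 111 against 228 and Foxl2 at 46.6 against 144. Amh, the gene for anti-Mullerian hormone, stood at 7.14 CPM against 323, and the follistatin gene Fst at 52.4 against 491. The 291 cells are therefore called theca-like, the groups are named by the gene that chose them, and the main counts for Inha-selected cells are given with and without cells that had 2 or more Cyp17a1 UMIs, a choice made after the values were seen.

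**Figure D1:**
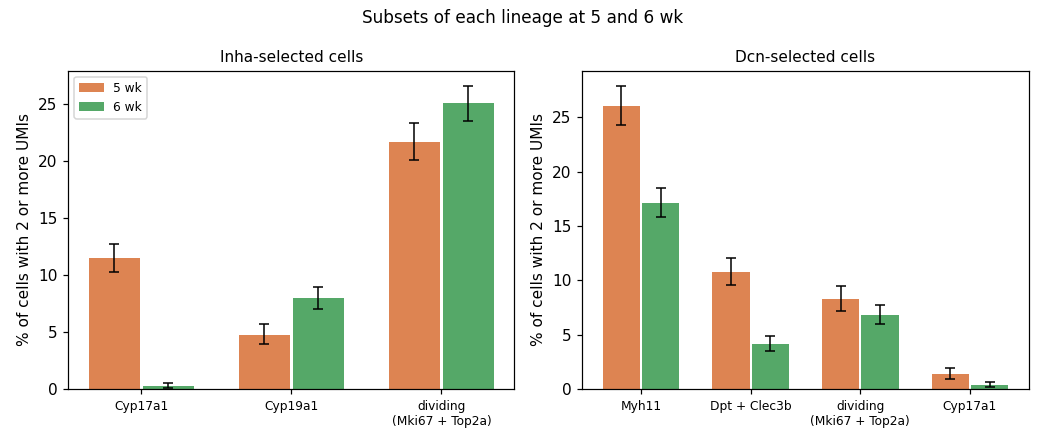
Share of Inha-selected (left) and Dcn-selected (right) cells with 2 or more UMIs of a marker at 5 wk (orange) and 6 wk (green), in percent, with 95% Clopper-Pearson intervals. In Inha-selected cells the Cyp17a1 share was 11.5% at 5 wk and 0.250% at 6 wk, and in Dcn-selected cells the Myh11 share was 26.1% and 17.1%.

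Most genes differed little between the 2 ages, and those that passed 2-fold were mainly lower at 6 wk. Genes were taken as measured in a lineage at 20 CPM or more at either age, leaving out Inha and Dcn. Of 6462 measured genes in Inha-selected cells, 98 were at least 2-fold lower at 6 wk (1.52%) and 12 at least 2-fold higher (0.186%). Of 6304 in Dcn-selected cells, 134 were lower (2.13%) and 15 higher (0.238%). The median ratio of 6 wk over 5 wk was 1.05 in each lineage, and CPM fixes each library's total, so changes are relative to it. Without the Cyp17a1 cells, Inha-selected cells had 25 lower genes of 6410 (0.39%) and 10 higher (0.156%), while Dcn-selected cells had 133 lower (2.11%) and 17 higher (0.27%). For scale, the step from 4 to 5 wk had 212 genes higher (3.31%) and 26 lower (0.406%) in Inha-selected cells. Dcn-selected cells had 133 higher (2.13%) and 24 lower (0.385%) in that step. Both steps share the 5 wk library. By the matrix headers Cell Ranger was 3.1.0 for 2 to 4 wk and 6.0.1 for 5 and 6 wk. Levels at 2 to 4 wk, here and below, therefore differ from the later ones in software version as well as age.

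Among 5464 genes measured in both lineages, 31 were at least 2-fold lower at 6 wk in both (0.567%) and 4 higher in both (0.0732%). The 31 are 31.6% of the genes lower in Inha-selected cells and 23.1% of those lower in Dcn-selected cells. Of the 98 genes lower in Inha-selected cells, 19 were level in Dcn-selected cells, which means that the higher of their 2 values exceeded the lower by under 25%. A further 20 were lower there, neither level nor past 2-fold, 2 were higher and not level, and 26 did not reach 20 CPM there. Of the 134 lower in Dcn-selected cells, 16 were level in Inha-selected cells and 66 did not reach 20 CPM there. Another 20 were lower there, neither level nor past 2-fold. Without the Cyp17a1 cells no gene was lower in Inha-selected cells and level in Dcn-selected cells. Of the 25 genes then lower in Inha-selected cells, 19 passed 2-fold in both, 5 were lower in Dcn-selected cells short of 2-fold, and 1 was under 20 CPM there. The genes lower in Dcn-selected cells and level in Inha-selected cells then numbered 17, and 5 genes were higher in both (0.0922%). Just inside and just outside the 2-fold line lay Nfkbia at 0.499 and Fdxr at 0.503 among the lower genes of Inha-selected cells, and Caprin2 at 0.499 and Azin1 at 0.502 among those of Dcn-selected cells. Among the higher genes they were Nme2 at 2.04 and Rnaset2b just under 2, and Bloc1s1 at 2.03 and Ifit1 at 1.97.

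**Figure D2:**
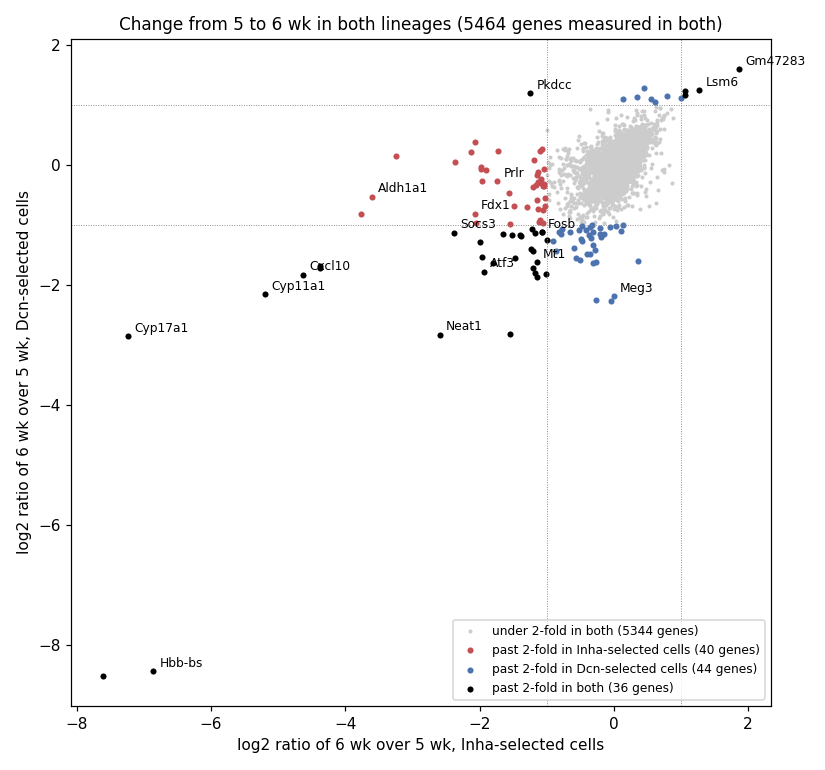
Log2 ratio of 6 wk over 5 wk in Inha-selected cells (horizontal) and Dcn-selected cells (vertical) for 5464 genes measured in both, with dotted lines at 2-fold. Black points pass 2-fold in both (31 lower, 4 higher and Pkdcc in opposite directions), red points in Inha-selected cells alone and blue points in Dcn-selected cells alone.

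The 31 genes lower in both lineages joined immediate-early and inflammatory genes with steroid, hemoglobin and metallothionein genes. Without the Cyp17a1 cells 18 of the 31 remained: Atf3, Fosb, Maff, Csrnp1, Ier3, Socs3, Pim1, Bhlhe40, Errfi1, Ifrd1, Cxcl1, Cxcl10, Tnfrsf12a, Sbno2, Lmna, S100a6, Neat1 and the Ifrd1 antisense locus Gm17056. Cebpd, a transcription factor of the acute inflammatory response, joined them, for 19 of 5425 genes (0.35%). The 13 that left included the steroid genes Cyp17a1, Cyp11a1 and Star, the hemoglobin genes Hba-a1 and Hbb-bs, the metallothionein genes Mt1 and Mt2, and Irf1, Nfkbia and Nfkbiz. Leaving the list does not mean that the fall was gone. Hbb-bs, Hba-a1 and Cyp17a1 no longer reached 20 CPM in Inha-selected cells, where their ratios were still 0.211, 0.0836 and 0.404. Cyp17a1 is also the gene that chose the cells left out.

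Neat1, a long noncoding RNA that builds nuclear paraspeckles (chr19:5824708-5845478, minus strand, GRCm38), fell in both lineages to below its level at any other age. It went from 574 to 95.1 CPM in Inha-selected cells and from 633 to 88.8 in Dcn-selected cells, ratios of 0.166 (0.161 to 0.170) and 0.140 (0.135 to 0.146). At 2, 3 and 4 wk it stood at 175, 219 and 270 CPM in Inha-selected cells and at 140, 254 and 429 in Dcn-selected cells. Without the Cyp17a1 cells the ratios were 0.213 and 0.142. In hematopoietic cells, chosen by 2 or more Laptm5 UMIs, Neat1 was at 881 and 416 CPM, and in endothelial cells, chosen by Cdh5, Flt1 and Egfl7, at 1424 and 112.

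Atf3, a transcription factor induced by cell stress (chr1:191170296-191218039, minus strand), fell in both lineages. Its levels went from 142 to 37.1 CPM in Inha-selected cells (ratio 0.261, 0.249 to 0.274) and from 704 to 205 in Dcn-selected cells (0.291, 0.284 to 0.299). At 2, 3 and 4 wk it stood at 51.9, 155 and 137 CPM in Inha-selected cells and at 354, 988 and 786 in Dcn-selected cells, so 6 wk was the lowest age in both and 2 wk the next. Fosb, a subunit of the AP-1 factor, went from 709 to 337 and from 2119 to 974 CPM, ratios of 0.475 and 0.459. Socs3, which restrains cytokine signals, went from 147 to 28.2 and from 612 to 279 CPM, ratios of 0.192 and 0.455. Without the Cyp17a1 cells the Inha-selected ratios of Atf3, Fosb and Socs3 were 0.331, 0.496 and 0.310.

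The immediate-early response was uneven across its members. Of 29 listed genes, 26 were measured in Inha-selected cells, and 11 of them were at least 2-fold lower and none higher, with a median ratio of 0.596 against 1.05 over all genes. In Dcn-selected cells 7 of 27 were lower and none higher, with a median of 0.683. Over all measured genes 1.52% were lower in Inha-selected cells and 2.13% in Dcn-selected cells. Fos and Jun, which form AP-1 with each other, did not reach 2-fold in either lineage, at 0.537 and 0.592 in Inha-selected cells and 0.773 and 0.568 in Dcn-selected cells. Egr1 and Nr4a1, also induced within minutes of a stimulus, had ratios of 0.763 and 0.991 in Inha-selected cells and 0.947 and 0.938 in Dcn-selected cells. In Dcn-selected cells Cyr61, a matrix signal of stretched cells, went the other way without reaching 2-fold, from 179 to 304 CPM (1.70). Without the Cyp17a1 cells 7 of the listed genes were still lower in each lineage. Of all measured genes, 0.39% and 2.11% were then lower in Inha-selected and Dcn-selected cells. The heat shock list, with 14 and 15 measured genes, had median ratios of 0.944 and 0.939, and none passed 2-fold.

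Of the 31 genes lower in both lineages, 30 had 20 or more UMIs in endothelial cells and 24 of those were at least 2-fold lower there too, with a median ratio of 0.295. In hematopoietic cells 27 had 20 or more UMIs, of which 7 were lower and 2 higher past 2-fold, with a median ratio of 0.878. There were 296 and 149 endothelial cells and 98 and 80 hematopoietic cells at 5 and 6 wk. The share of all genes past 2-fold in these smaller groups is not given, so the counts have no background to be set against. Mt1 and Mt2 went the opposite way in endothelial cells, at 1.77 and 1.99.

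Of 20 listed chemokines only 2, Cxcl10 and Cxcl1, were measured in Inha-selected cells, and both were lowest at 6 wk there. Both were at least 2-fold lower than at 5 wk, where 1.52% of all measured genes were. In Dcn-selected cells 2 of 6 measured were lower, with a median ratio of 0.836, where 2.13% of all measured genes were lower. Cxcl10, an interferon-induced attractant of T cells (chr5:92346638-92348889, minus strand), went from 44.8 to 1.81 CPM in Inha-selected cells, a ratio of 0.0403 (0.0331 to 0.0487), and from 149 to 41.8 in Dcn-selected cells, 0.281 (0.266 to 0.298). At 2, 3 and 4 wk it was at 22.1, 46.7 and 19.9 CPM in Inha-selected cells and at 12.9, 39.3 and 106 in Dcn-selected cells, so the 6 wk value lay below all earlier ages in the first group and within their range in the second. Endothelial cells went from 1276 to 91.4 CPM of Cxcl10 and hematopoietic cells from 548 to 179. The highest of these levels lay in endothelial cells at 5 wk and in hematopoietic cells at 6 wk. Cxcl1, an attractant of neutrophils, fell from 115 to 41.6 and from 90.8 to 31.0 CPM. Without the Cyp17a1 cells the Inha-selected ratios of Cxcl10 and Cxcl1 were 0.0611 and 0.417. Of 38 interferon-stimulated genes listed, 4 were measured in Inha-selected cells. All 4 had ratios under 1, with a median of 0.812, or 1.02 without the Cyp17a1 cells, and none passed 2-fold. In Dcn-selected cells 22 were measured, with a median of 1.02. The only one past 2-fold was Ifit3, an antiviral RNA-binding protein, which rose from 12.8 to 27.1 CPM in Dcn-selected cells (2.12, 1.88 to 2.39). Among all measured genes there 0.238% were higher.

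Metallothioneins, which bind zinc and copper, fell in both lineages. Mt1 (chr8:94179082-94180327, plus strand) went from 1111 to 360 CPM in Dcn-selected cells, a ratio of 0.324 (0.318 to 0.331), and from 764 to 344 in Inha-selected cells, 0.450 (0.443 to 0.458). Its neighbour Mt2 (chr8:94172664-94173568, plus strand) went from 103 to 33.4 and from 71.4 to 20.6 CPM, ratios of 0.323 and 0.288. In Inha-selected cells both calls were lost without the Cyp17a1 cells, where the ratios were 0.657 and 0.638, while in Dcn-selected cells both ratios stayed at 0.322. Of 23 metallothionein and antioxidant genes, 20 were measured in Inha-selected cells and 21 in Dcn-selected cells. Mt1 and Mt2 were the only ones at least 2-fold lower in either lineage, and Txnip, in Dcn-selected cells, the only one higher. Over all measured genes 1.52% were lower in Inha-selected cells. In Dcn-selected cells 2.13% of all measured genes were lower and 0.238% higher.

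The 250 bases before the RefSeq start sites of Cxcl10, Mt1 and Mt2 (GRCm38.p6) are shown because these genes have well known response elements for signals that induce them. In Cxcl10 the capitals mark a match to GAAA, 2 bases of any kind and GAAA again, the core of an interferon-stimulated response element, and in Mt1 and Mt2 they mark TGCNCNC, a loose form of the metal response element core, on either strand.
Cxcl10, chr5:92348890-92349139, minus strand: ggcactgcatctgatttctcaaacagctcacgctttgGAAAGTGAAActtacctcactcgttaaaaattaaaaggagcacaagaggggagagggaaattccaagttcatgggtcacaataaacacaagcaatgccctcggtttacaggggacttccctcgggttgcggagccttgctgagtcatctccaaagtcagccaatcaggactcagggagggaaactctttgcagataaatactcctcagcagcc
Mt1, chr8:94178839-94179088, plus strand: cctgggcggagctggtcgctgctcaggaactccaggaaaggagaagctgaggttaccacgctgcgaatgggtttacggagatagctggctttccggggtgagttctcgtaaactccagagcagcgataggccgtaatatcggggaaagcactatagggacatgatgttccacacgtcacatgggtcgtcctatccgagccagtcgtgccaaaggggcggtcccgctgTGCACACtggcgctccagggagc
Mt2, chr8:94172368-94172617, plus strand: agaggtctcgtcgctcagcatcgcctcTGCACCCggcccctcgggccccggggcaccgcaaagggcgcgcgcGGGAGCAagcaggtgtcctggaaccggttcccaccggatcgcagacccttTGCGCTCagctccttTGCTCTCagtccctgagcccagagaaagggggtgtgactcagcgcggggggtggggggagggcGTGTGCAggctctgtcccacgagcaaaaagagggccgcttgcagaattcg

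Motifs were searched on both strands from 250 bases before to 50 after the start site. In those last 50 bases, not shown above, TGCNCNC matches began at bases 3 and 21 in Mt1 and base 5 in Mt2. The pair of GAAA blocks occurred in 1 of the 23 promoters found for the 31 genes, that of Cxcl10, and in 3.49% of all 27025 promoters. TGCNCNC occurred in 19 of the 23 and in 50.4% of all promoters. AAGGTCA, the site of steroidogenic NR5A receptors, occurred in 2 of the 23 and in 4.66% of all. TGACGTCA, the full cAMP response element, and CCATA run on into TTAGG, a site of serum response factor, occurred in none of the 23 and in 1.88% and 0.0777% of all. A match describes the letters in this window and is not a measurement of binding.

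The 4 genes higher in both lineages were Gm47283, Lsm6, Rnaset2a and Gm2000, and all 4 passed 2-fold in endothelial and hematopoietic cells as well. In hematopoietic cells these ratios rested on 27 to 81 UMIs per gene and age. Their intervals there all reached below 2, for Gm2000 down to 1.30. The share of all genes past 2-fold in endothelial and hematopoietic cells is not given, so this count has no background either. Lsm6, a subunit of the rings that hold U6 RNA and start mRNA decay, went from 62.6 to 151 CPM in Inha-selected cells (2.42, 2.32 to 2.52) and from 48.3 to 114 in Dcn-selected cells (2.37, 2.23 to 2.52). Its levels at 2 to 4 wk were 96.9 to 142 CPM in Inha-selected cells and 100 to 120 in Dcn-selected cells, so the 5 wk value was the low one. Gm47283, a predicted gene annotated on chromosome Y although the tissue is ovary, went from 91.1 to 332 and from 78.8 to 238 CPM. Rnaset2a has a closely similar copy, Rnaset2b, and reads of the 2 may be split uncertainly; Rnaset2b had ratios of 2.00 and 2.16.

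Steroid genes of the theca were among the deepest falls in Inha-selected cells, beside hemoglobin genes, and most of their 5 wk UMIs lay in the theca-like cells. Cyp17a1 went from 436 to 2.89 CPM, Cyp11a1 from 790 to 21.5, and Star, which carries cholesterol into mitochondria, from 69.5 to 3.33. Of 16 measured genes of androgen synthesis and theca, 9 were at least 2-fold lower and none higher, where 1.52% of all measured genes were lower. Without the Cyp17a1 cells 1 of 11 measured was lower and the median ratio was 1.12. This median leaves out Cyp17a1, Star, Lhcgr, Bpifb4 and Srd5a1, which no longer reached 20 CPM. Their ratios were still under 1, from 0.404 to 0.678. Aldh1a1, a retinoic acid enzyme, went from 579 to 47.5 CPM, and Prlr, the prolactin receptor, from 117 to 35.1. Fdx1, which passes electrons to Cyp11a1, had a ratio of 0.238. The 291 theca-like cells held 13.6% of the UMIs of Inha-selected cells at 5 wk and, over the 98 genes lower at 6 wk, a median of 56.4% of each gene's UMIs.

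Without Cyp17a1 cells 23 of those 98 genes still passed 2-fold, 33 were lower by less, 39 did not reach 20 CPM and 3 were higher at 6 wk. The 3 were Prlr, Smoc2, a matrix protein that binds calcium, and Mgarp, a mitochondrial protein of steroid-making cells, at only 1.04. Among the 39, Col3a1, Pkdcc, Hao2, Cst8, Iqgap2 and Socs1 also had ratios above 1, from 1.08 to 2.43, and the rest were under 1. Among steroid genes Cyp11a1 was the one that still passed, at 0.450, while Star, Aldh1a1 and Fdx1 had ratios of 0.545, 0.684 and 0.925. Hsd3b1, the enzyme after Cyp11a1, changed sign with the choice: its ratio was 0.824 in all Inha-selected cells and 1.87 without the Cyp17a1 cells. The cholesterol genes Hmgcs1 and Idi1 had ratios of 0.486 and 0.420 in all Inha-selected cells, and of 0.885 and 0.785 without the Cyp17a1 cells.

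**Figure D3:**
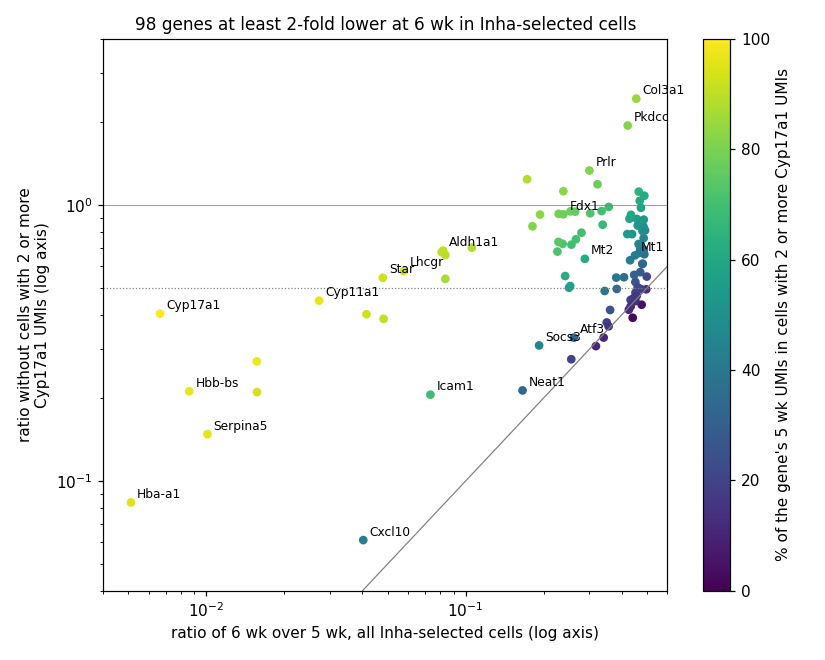
Ratio of 6 wk over 5 wk for 98 genes at least 2-fold lower in Inha-selected cells, with all cells (horizontal) and without cells that had 2 or more Cyp17a1 UMIs (vertical), both on log axes, colored by the percent of the gene's 5 wk UMIs that lay in those cells. Genes near the diagonal changed little between the choices, among them Atf3, Neat1 and Cxcl10, which stay below the dotted line at 0.5, while Cyp11a1 moves from 0.0272 to 0.450.

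Hemoglobin fell deeply in both lineages and lay in few cells. Hbb-bs, a beta globin, went from 95.1 to 0.818 CPM in Inha-selected cells and from 236 to 0.678 in Dcn-selected cells. At 5 wk the 4 globin genes had 7532 UMIs in Inha-selected cells, 96.3% of them in 20 cells, and 11627 in Dcn-selected cells, 98.3% of them in 20 cells. In each lineage 5 cells had 10 or more globin UMIs at 5 wk. Of the 5 wk Hbb-bs UMIs of Inha-selected cells, 96.5% lay in the theca-like cells. The share of cells with an Hbb-bs UMI was nevertheless similar, 8.25% of theca-like cells and 6.85% of the other Inha-selected cells. At 6 wk the globin totals were 81 and 47 UMIs. The erythroid enzyme Alas2 stood at 0.889 and 0.896 CPM in Inha-selected cells and at 0.385 and 0.0502 in Dcn-selected cells.

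Inhba and Nppc rose in Inha-selected cells, each as the only gene of its list to pass 2-fold. In the list of inhibin, activin, follistatin and AMH genes that was 1 of 9 measured, with a median ratio of 1.19, and in the preantral and cumulus list 1 of 18, with a median of 1.15. Over all measured genes of Inha-selected cells 0.186% were higher. Inhba, the beta A subunit of activin and inhibin (chr13:16011851-16031621, plus strand), went from 490 to 1093 CPM, a ratio of 2.23 (2.20 to 2.26), or 2.07 (2.03 to 2.10) without the Cyp17a1 cells. Its level moved up and down with age, at 53.9, 309 and 105 CPM at 2, 3 and 4 wk. In Dcn-selected cells it was at 7.28 and 15.1 CPM, and in hematopoietic cells at 4.18 and 11.5, from only 4 and 9 UMIs. Inhbb, the beta B subunit, went from 186 to 369 CPM and stopped just short of 2-fold (1.98, 1.94 to 2.03), and Fst, which binds activin, went from 432 to 732 (1.70). Amh went the other way without reaching 2-fold, from 280 to 250 CPM.

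Nppc, the peptide with which granulosa cells hold the oocyte in meiosis (chr1:86666291-86670571, minus strand), went from 55.5 to 136 CPM, a ratio of 2.44 (2.34 to 2.55). The ratio was 2.18 (2.09 to 2.28) without the Cyp17a1 cells. At 2, 3 and 4 wk Nppc was at 25.9, 25.9 and 27.6 CPM, so 5 wk and then 6 wk were the highest levels. In Dcn-selected cells it was at 4.02 and 2.31 CPM. With every cell thinned to 5000 UMIs, leaving out 153 and 104 shallower Inha-selected cells, 15.8% and 28.9% of cells had a Nppc UMI, against 0% and 1.11% of hematopoietic cells (without thinning, 32.0% and 49.9% against 0 of 98 and 1 of 80 cells), whose median depths were 7423 and 9102.5 UMIs against 17322 and 18381. Irak2, a kinase of interleukin-1 signals, went from 13.6 to 35.2 CPM, the Notch target Hey2 from 27.3 to 57.7, and the complement protease Masp1 from 11.7 to 26.2. Hey2 had a ratio of 1.85 without the Cyp17a1 cells, and the other 2 kept theirs above 2.

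Inhba and Nppc were followed inside and outside the estrogen-making subset. Cells with 2 or more UMIs of Cyp19a1, the aromatase, were 4.76% of Inha-selected cells at 5 wk (121 cells; 3.97 to 5.67%) and 7.98% at 6 wk (255 cells; 7.06 to 8.97%). Within them Inhba stood at 4237 and 4507 CPM (1.06), and outside them at 281 and 732 (2.60, 2.55 to 2.66). Nppc went from 234 to 320 CPM within them (1.37, 1.251 to 1.506) and from 45.6 to 116 outside (2.54, 2.42 to 2.67). Both passed 2-fold outside the subset and neither did within it. Dividing cells, with 2 or more UMIs of Mki67 and Top2a together, were 21.7% (20.1 to 23.3%) and 25.1% (23.6 to 26.6%) of Inha-selected cells, and no gene of the DNA replication list or of the mitosis list passed 2-fold.

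No granulosa marker passed 2-fold in Inha-selected cells. Of 10 measured, the median ratio was 1.47, or 1.32 without the Cyp17a1 cells, against 1.05 and 1.04 over all genes. Foxl2, the factor that keeps granulosa identity, had a ratio of 1.37, Hsd17b1, which makes estradiol, 1.58, and Nr5a2, a nuclear receptor of steroid genes, 1.58. These ratios include the theca-like cells, which at 5 wk held less of each. Foxl2 stood there at 46.6 against 144 CPM in the other Inha-selected cells, Hsd17b1 at 77.4 against 364 and Nr5a2 at 56.8 against 386.

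Smooth muscle genes were lower at 6 wk in Dcn-selected cells, together with a smaller share of cells with 2 or more Myh11 UMIs. Of 21 measured contractile genes 6 were at least 2-fold lower and none higher, with a median ratio of 0.729, where 2.13% of all measured genes were lower and their median was 1.05. Des, the muscle intermediate filament desmin, went from 136 to 33.0 CPM (0.243, 0.228 to 0.259), Cnn1, calponin, from 161 to 54.6 (0.339), Actg2, gamma smooth muscle actin, from 381 to 138 (0.362, 0.350 to 0.374), and Myh11, smooth muscle myosin, from 424 to 202 (0.476). Synpo2 and Pdlim3, which sit on actin bundles, had ratios of 0.435 and 0.478. Acta2 and Tagln, which other mesenchymal cells also express, went from 2573 to 1876 and from 1822 to 1108 CPM and stayed short of 2-fold. At 2, 3 and 4 wk Actg2 was at 298.7, 239.7 and 249.3 CPM, between its 5 and 6 wk levels.

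Cells with 2 or more Myh11 UMIs were 26.1% of Dcn-selected cells at 5 wk (613 cells, 24.3 to 27.9%) and 17.1% at 6 wk (550 cells, 15.8 to 18.5%). Myh11, which defines this subset, is itself among the lower genes, so the share is not a measure of cell numbers apart from its level. Within them Actg2 went from 1354 to 656 CPM (0.485, 0.469 to 0.501) and Des from 407 to 44.0 (0.108, 0.0964 to 0.121), so the levels fell inside the subset as well. In Dcn-selected cells without them Actg2 stood at 14.0 and 13.2 CPM and Des at 33.5 and 30.4, and Cnn1 and Synpo2 were short of 2-fold as well. Myh11 was too, but it chose the cells left out, so its level there is limited by the rule.

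A second subset, marked by the matrix genes Dpt and Clec3b, shrank from 10.8% (253 cells; 9.53 to 12.1%) to 4.17% (134 cells; 3.50 to 4.92%) of Dcn-selected cells. Col14a1, a fibril-associated collagen, went from 27.6 to 8.39 CPM, Tnxb, a tenascin of connective tissue, from 28.6 to 10.6, Postn, periostin, from 27.1 to 3.44, and C3, the central complement protein, from 71.7 to 10.2. Without the subset Col14a1 and Tnxb had ratios of 0.749 and 0.764, while Postn and C3 still stood at 0.126 and 0.125. Within it C3 went from 544 to 203 CPM and Tnfaip6, which crosslinks hyaluronan, from 362 to 10.8. The subset was defined after the values were seen, and Dpt and Clec3b are themselves among the 134 lower genes.

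Most collagens and matrix genes did not follow. Of 19 measured collagen genes Col14a1 was the only one past 2-fold, and Col1a1, Col1a2 and Col3a1, the main fibril collagens, had ratios of 0.871, 1.09 and 0.917. Of 34 matrix glycoprotein and crosslinking genes, Postn, Tnxb and Efemp1 were lower and none was higher, with a median ratio of 1.02. Among all measured genes of Dcn-selected cells 2.13% were lower.

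In Dcn-selected cells 3 of 18 measured matrix protease and inhibitor genes were at least 2-fold lower, with a median ratio of 0.905. For ovulation genes it was 2 of 8, with a median of 0.666. None was higher in either list, and 2.13% of all measured genes were lower. Tnfaip6 went from 61.3 to 4.57 CPM (0.0745, 0.0636 to 0.0869), Has1, a hyaluronan synthase, from 48.7 to 12.6 (0.259), and Ugdh, which makes its sugar precursor, from 157 to 62.5 (0.397). Adamts4, a protease of versican, went from 239 to 78.0 CPM, and Adamts9 from 89.9 to 34.5. Has1 was named after its value was seen. Ugdh had a ratio of 0.804 in Inha-selected cells, within 25%, and Adamts4 stood at 4.01 and 1.81 CPM there.

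Of the other genes that fell past 2-fold in Dcn-selected cells and were level in Inha-selected cells, 5 are described here. Cdkn1a, the cell cycle inhibitor p21, went from 89.6 to 18.7 CPM (0.209, 0.192 to 0.227) and stood at 25.7 and 21.5 in Inha-selected cells. Meg3, an imprinted noncoding RNA, went from 96.8 to 21.1 CPM and stood at 214 and 215 in Inha-selected cells (ratio 1.002, 0.976 to 1.03). In Dcn-selected cells Meg3 had been at 272, 270 and 159 CPM at 2, 3 and 4 wk, so 6 wk was the lowest of the 5 ages. Hk2, which starts glycolysis and was the only one of 15 measured glycolysis and hypoxia genes past 2-fold in Dcn-selected cells, had ratios of 0.320 and 0.809, Sgk1, a kinase induced by corticosteroids, 0.449 and 0.868, and Irs2, an insulin receptor substrate, 0.480 and 0.865, in Dcn-selected and Inha-selected cells. The 9 measured genes of the glucocorticoid, progesterone and androgen response list had a median of 0.614 in Dcn-selected cells, with 4 lower, Mt1, Mt2, Errfi1 and Sgk1. Among all measured genes there 2.13% were lower.

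Hist1h1b, a linker histone of dividing cells, went from 139 to 64.8 CPM in Dcn-selected cells (0.466), and had a ratio of 1.08 (0.890 to 1.31) once dividing cells were left out. Dividing cells were 8.29% (7.20 to 9.48%) and 6.78% (5.94 to 7.71%) of Dcn-selected cells. The 21 measured mitosis genes had a median ratio of 0.704 there, and none passed 2-fold.

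Genes higher at 6 wk in Dcn-selected cells were few and of mixed function. Hsd11b2, which inactivates glucocorticoid, went from 37.3 to 90.4 CPM (2.42, 2.26 to 2.60), Actr3b, an actin-branching subunit, from 87.5 to 196 (2.24), and Txnip, which curbs glucose uptake, from 272 to 597 (2.19, 2.14 to 2.25). Ddit4l, a brake on the growth kinase mTOR, went from 161 to 331 CPM, Bcat1, which starts the breakdown of branched amino acids, from 29.1 to 62.4, and Phpt1, a histidine phosphatase, from 34.2 to 75.4. For Actr3b and Txnip the 6 wk level was above all earlier ages, which ranged from 68.3 to 104 CPM and from 102 to 272 CPM. Bcat1 was the only one of the 15 that was level in Inha-selected cells, where it stood at 151 and 166 CPM (1.10).

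Without the 33 and 12 Dcn-selected cells that had 2 or more Cyp17a1 UMIs, Hsd3b1 joined the genes higher in Dcn-selected cells, from 6.61 to 26.9 CPM (4.08, 3.48 to 4.79), although with them it was at 71.0 and 48.3 (0.681). Stc1, a secreted glycoprotein, joined too, at 2.05. Both were named after their values were seen.

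**Figure D4:**
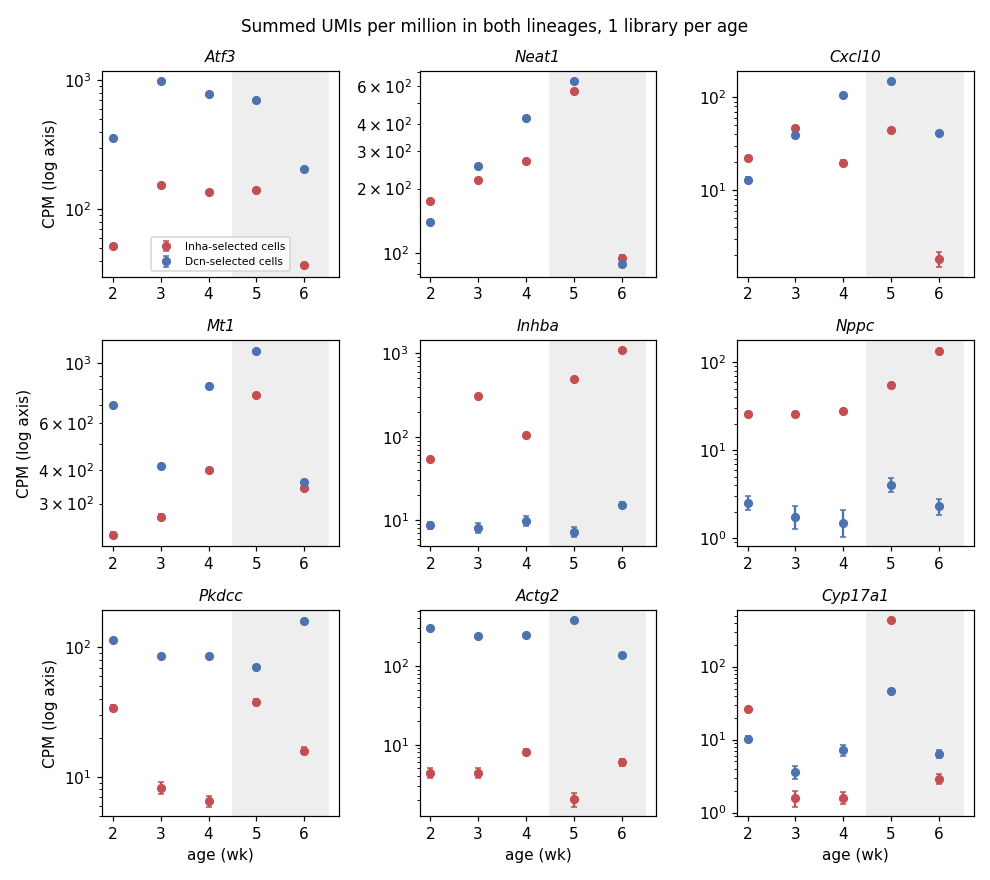
CPM on log axes of 9 genes in Inha-selected (red) and Dcn-selected (blue) cells at 2 to 6 wk, 1 library per age, with exact Poisson 95% intervals, mostly smaller than the points, and the 5 and 6 wk libraries on grey. Neat1 and Mt1 are highest at 5 wk in both groups, Inhba and Nppc are highest at 6 wk in Inha-selected cells, and Cyp17a1 is highest at 5 wk in both.

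Pathway lists with 3 or more measured genes in a lineage are compared by their medians; marker lists are left out here. In Inha-selected cells the androgen and theca list had the lowest median, 0.385 over 16 measured genes. It became 1.12 over the 11 still measured without the Cyp17a1 cells, and the genes no longer measured all had ratios under 1. The immediate-early list then had the lowest median, 0.664. In Dcn-selected cells the lowest medians were those of the steroid response list (0.614), the ovulation list (0.666) and the immediate-early list (0.683). The 60 measured nuclear genes of oxidative phosphorylation had medians of 1.05 and 1.13, with none past 2-fold, and the 13 mitochondrially encoded genes 1.03 and 1.02.

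**Figure D5:**
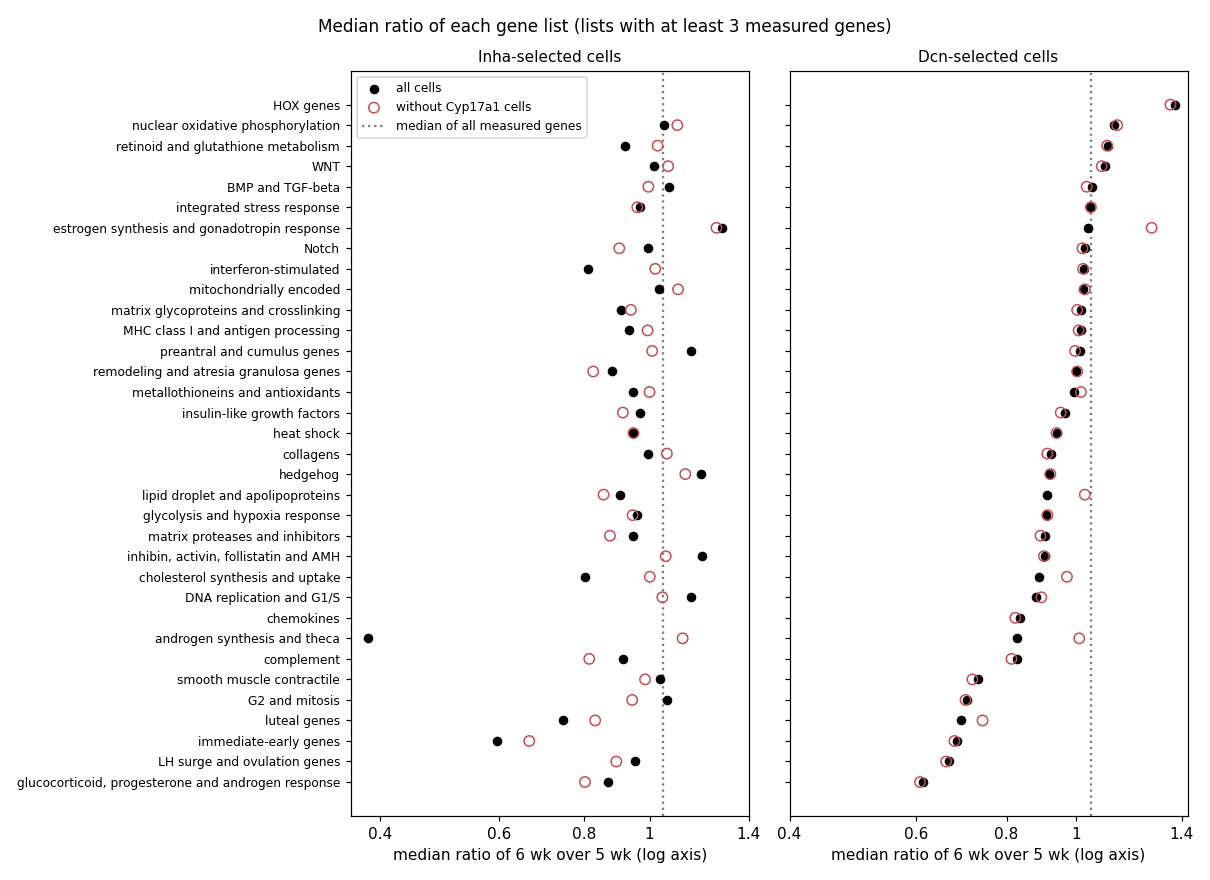
Median ratio of 6 wk over 5 wk (log axis) of each gene list in Inha-selected (left) and Dcn-selected (right) cells, with all cells (black) and without cells that had 2 or more Cyp17a1 UMIs (red rings). The dotted line is the median of all measured genes, 1.05 in both. The androgen and theca list moves from 0.385 (16 measured genes) to 1.12 (the 11 still measured) in Inha-selected cells, and the immediate-early list stays low in both.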

How the data were processed

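The authors dissociated ovaries with trypsin, sorted live cells, made 10x 3′ v3.1 libraries and counted UMIs per gene and cell. The deposited matrices hold UMI counts, not normalized; their headers name Cell Ranger 6.0.1 for 5 and 6 wk and 3.1.0 for 2 to 4 wk. The submitters' processing notes name Cell Ranger 3.1.0, Seurat 4.1.0 and mm10. UMIs were summed per lineage and library and divided by their total (CPM) with Python 3.11.15, numpy 2.4.6 and scipy 1.17.1. Ratios of 6 wk over 5 wk have exact 95% intervals conditional on the summed counts, CPM exact Poisson intervals and shares Clopper-Pearson intervals. With 1 library per age no test was made. Totals of 48374735 and 63606125 UMIs in Inha-selected cells and 28578543 and 39813897 in Dcn-selected cells set the precision; 3 UMIs, the limit a count of 0 allows, are 0.0472 to 0.105 CPM.

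Genes were called at 2-fold with 20 CPM at either age. Named genes are, at 50 CPM or more and leaving out ribosomal protein, mitochondrial, Gm and Rik genes, the 8 highest and 8 lowest ratios per lineage, in both lineages and in 1 lineage with the other within 1.25-fold, genes in opposite directions, and up to 4 members per list, with further list members where a list needed them. All other genes named, such as Gm47283, Gm2000, Rnaset2a, Irak2, Has1, Pcp4, Lyz2 and the rest of the genes lower in both lineages, were chosen after their values were seen. The lineages, lists and rules were chosen with earlier results of these data known. Scrublet (scanpy 1.11.5) marked 2.08% and 2.31% of barcodes as doublets, which were kept. Promoters and start sites are from RefSeq, gene coordinates from GENCODE M21. The functions that compute ratios and intervals were tested on simulated data. The 13 alternatives planned and 4 added after the values were seen are in the closing section.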

Additional observations from a re-analysis of the deposited data

Results flagged for a closer look

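Pkdcc, a secreted kinase of the matrix (chr17:83215292-83225070, plus strand), moved past 2-fold in opposite directions in the 2 lineages. It went from 37.9 to 15.99 CPM in Inha-selected cells, a ratio of 0.422 (95% interval 0.390 to 0.456), and from 70.4 to 161 in Dcn-selected cells, 2.28 (2.17 to 2.40). With 1 library per age the difference between the lineages was not tested. Without cells that had 2 or more Cyp17a1 UMIs the Inha-selected ratio was 1.94 (1.72 to 2.20) and the Dcn-selected ratio 2.36, so both were then above 1. In Inha-selected cells at 5 wk Pkdcc stood at 227 CPM in the 291 theca-like cells and at 8.16 in the others.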

How the results depend on the processing

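Counts are given in the order Inha-selected higher and lower, Dcn-selected higher and lower, both higher and lower, where the values reported were 12, 98, 15, 134, 4 and 31. At 1.5-fold they were 104, 211, 132, 324, 30 and 69, and at 3-fold 1, 44, 1, 46, 1 and 10. With a minimum of 5 CPM they were 30, 246, 45, 311, 8 and 72, and with 50 CPM the Inha-selected counts were 6 and 56, the Dcn-selected lower count 68 and the count lower in both 18. Dividing by the median ratio left 2 genes higher in both. CPM without ribosomal protein and mitochondrial genes gave 19 and 29 genes higher in Inha-selected and Dcn-selected cells. The mean over cells of each cell's CPM, and likewise the filter of 2000 genes and 10% mitochondrial UMIs, gave 65 genes lower in Inha-selected cells. Without cells that had 2 or more Cyp17a1 UMIs, 25 were lower in Inha-selected cells and 19 in both. The other counts stayed within 1.5 times under these and the remaining alternatives: all barcodes, stricter lineage rules, no doublets, no dividing cells, no marked subsets, no Dpt and Clec3b cells, no Myh11 cells and no barcodes held by both libraries.

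Of 103 ratios past 2-fold, 80 stayed past it without the Cyp17a1 cells and 95 to 103 under the other alternatives applied to both lineages. Of the 59 in Dcn-selected cells, 49 stayed past it without Dpt and Clec3b cells and 52 without Myh11 cells. Direction turned for Prlr (1.33), Pkdcc (1.94) and Col3a1 (2.43) in Inha-selected cells without the Cyp17a1 cells and for Hist1h1b (1.08) in Dcn-selected cells without dividing cells. No paired analysis was possible because each age has 1 library. The limit at these depths is the single library per age, since 3 UMIs are at most 0.105 CPM.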

Other observations

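In Dcn-selected cells the 6 measured HOX genes, which hold positional identity, all had ratios above 1, with a median of 1.37 and none past 2-fold. They ran from Hoxc6 at 1.21, from 57.2 to 69.4 CPM, to Hoxd9 at 1.44, from 61.0 to 87.8. No HOX gene reached 20 CPM in Inha-selected cells. Tcf21, a factor of fibroblast progenitors, went from 174 to 304 CPM (1.75) in Dcn-selected cells, and Foxl2, measured there too, from 98.4 to 174 (1.77).

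Pcp4, a calmodulin-binding peptide of muscle and nerve, was named after its value was seen: it went from 32.6 to 0.151 CPM in Dcn-selected cells and had stood at 37.3, 9.36 and 3.11 CPM at 2, 3 and 4 wk. Lyz2, a lysozyme of macrophages, went from 32.4 to 2.94 CPM in Dcn-selected cells, where the 7 hematopoietic markers summed to 34.2 and 12.5 CPM; their part in its value was not tested.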
